A study of Mus musculus with 8 samples.

Results

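The genes described here encode histone demethylases, histone deacetylases and SET or PR domain proteins. They were taken by name from the table of all genes measured in a mouse mammary epithelial line: every gene whose symbol starts with Kdm, Setd (without Setdb1, and with Setdb2), Prdm, Hdac or Sirt followed by its number or letter. The rule used no measured values and found 57 of the 19937 genes, which were 18 Kdm genes, 9 Setd genes, 12 Prdm genes, 11 Hdac genes and 7 Sirt genes. NMuMG cells, a line from normal mouse mammary gland, carried, by stable transfection, either a control vector or 1 holding major satellite sequences, a repeat that makes up the heterochromatin around mouse centromeres. Total RNA from untreated cells (0 h) and from cells given TGFbeta for 8 h was hybridised to 8 Affymetrix arrays, 2 in each of the 4 groups. Whether each stable line was a single clone or a pool was not given in the sources used here, and neither was the strain or the dose of TGFbeta.

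Lysine residues on histone tails carry methyl and acetyl groups that mark genes as active or silent. SET domain enzymes add methyl groups, and demethylases remove them, either by flavin-dependent amine oxidation (Kdm1a and Kdm1b) or by the jumonji chemistry of the other Kdm genes. Deacetylases of the Hdac type use zinc and sirtuins use NAD to strip acetyl groups, and PR domain proteins are zinc finger transcription factors related to the SET enzymes. In mammary epithelium TGFbeta drives the epithelial-mesenchymal transition, in which repressors of the Snail family recruit several of these enzymes to epithelial genes.

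After TGFbeta, averaged over both vectors, 12 of the 57 genes passed the test, or 21.1%, against 24.3% of all 19937 genes. The demethylases Kdm6b, Kdm5b and Kdm1a rose together with the deacetylase Hdac6, the sirtuin Sirt6 and the PR domain repressor Prdm1, while the demethylase Kdm7a and the SET domain gene Setdb2 fell. None of the 57 genes passed in limma for major satellite against control vector, where 0.0853% of all genes did. All values are deposited log2 expression values. Changes are log2 differences ± standard error (SE), each group having 2 arrays. Adjusted p come from limma over all 19937 genes, and 0.05 was the threshold for a pass. The fit held the replicate number, a code in the array titles that 1 array of every group shares, as a further term.

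The 250 bases before the annotated start are shown first for the genes with the widest changes. RefSeq sequences of build GRCm38.p6 matched 45 of the 57 genes, and among those called Kdm6b and Hdac10 were not matched. The 4 windows printed belong to genes whose average response to TGFbeta was over 0.5 in size on the log2 scale: Kdm5b at chr1:134559928-134560177 (plus strand), Hdac6 at chrX:7947890-7948139 (minus strand), Kdm7a at chr6:39206774-39207023 (minus strand) and Setdb2 at chr14:59440881-59441130 (minus strand). Each is written 5′ to 3′ along the gene, and capitals mark the GC box GGGCGG on either strand.
Kdm5b: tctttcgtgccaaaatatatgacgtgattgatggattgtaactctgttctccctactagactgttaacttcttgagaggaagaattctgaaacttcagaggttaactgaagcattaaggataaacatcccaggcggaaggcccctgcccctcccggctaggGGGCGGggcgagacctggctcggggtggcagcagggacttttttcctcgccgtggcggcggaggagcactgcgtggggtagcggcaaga
Hdac6: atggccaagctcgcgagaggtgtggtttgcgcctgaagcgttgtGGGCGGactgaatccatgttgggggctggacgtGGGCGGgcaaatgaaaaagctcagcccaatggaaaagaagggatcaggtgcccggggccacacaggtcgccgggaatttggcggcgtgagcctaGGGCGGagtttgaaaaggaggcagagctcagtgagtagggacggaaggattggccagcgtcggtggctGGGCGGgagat
Kdm7a: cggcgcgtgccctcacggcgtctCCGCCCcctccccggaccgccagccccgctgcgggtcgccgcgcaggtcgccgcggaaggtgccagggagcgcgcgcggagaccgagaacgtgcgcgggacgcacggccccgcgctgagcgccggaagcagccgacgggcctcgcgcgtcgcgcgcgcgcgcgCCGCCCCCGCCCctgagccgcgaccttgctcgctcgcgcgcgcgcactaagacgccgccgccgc
Setdb2: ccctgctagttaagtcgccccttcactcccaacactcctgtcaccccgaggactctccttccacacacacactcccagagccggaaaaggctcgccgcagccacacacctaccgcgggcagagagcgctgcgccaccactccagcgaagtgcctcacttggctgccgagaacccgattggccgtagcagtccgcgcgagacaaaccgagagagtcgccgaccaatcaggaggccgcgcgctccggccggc
The window of Kdm7a was 82.0% G and C with 56 CpG pairs and held 3 GC boxes. Setdb2, the other gene of this set that fell, had 65.6% G and C, 24 CpG pairs and no match to any motif searched. The window of Hdac6, which rose, had 17 CpG pairs and 4 GC boxes, and that of Kdm5b, which rose too, 13 CpG pairs and 1 GC box. Of the other matched genes that passed on average only Kdm8 fell, so CpG content cannot be compared by direction among them. Kdm8 had 7 CpG pairs, fewer than each gene that rose. Setd6, which was lower and passed only with the control vector, had 20. Among those that rose, Hdac4 had 23, Kdm1a 21, Setd7 17 and Prdm1 15, and the windows of Sirt6 had 20 and 13.

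Across all 62 windows of the 45 matched genes the median content was 60.8% G and C with 17 CpG pairs, against 52.4% and 6 over the 32851 windows of all genes. Motifs were searched on both strands. The GC box stood in 51.6% of the members' windows and 32.7% of all windows. The Smad core CAGAC stood in 35.5% and 42.2%, and the AP-1 letters TGANTCA in 9.68% and 6.75%. The Smad palindrome GTCTAGAC, found in 0.167% of all windows, occurred in 1 of the 62, at a second annotated start of Sirt6. It is shown because Sirt6 is among the genes that rose. The 30 bases around it lie at chr10:81627362-81627391 on the minus strand, and the first base of the palindrome, in capitals, lies 58 bases before that start.
Sirt6: tgaaacatagaGTCTAGACaatgggaggga
These matches describe letters in a window, not binding.

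The number of arrays limits the precision. The median over all probesets was 7.72 to 7.76 for replicate number 1, with 4 arrays, and 7.88 to 7.92 for number 2, also with 4. The labels do not name the replicates as separate cultures, and the p-values thus cover the spread between these arrays alone, which may be technical. As a check of the treatment, all 5 measured genes of a short list of direct TGFbeta targets rose, from 0.54 for Tgif1 to 1.62 for Snai1, the Snail repressor, and 4 passed without the replicate number, Skil being at an adjusted p of 0.0638. Of the 7 epithelial markers set against the label of the line, Krt8 (14.2 to 14.4), Krt18 (13.5 to 13.9), Krt19 (12.6 to 13.8) and Cdh1 (12.7 to 13.2) were high in all arrays and Cldn3 lay between 7.91 and 8.78. Epcam, from 6.53 to 7.16, and Cldn7, from 6.70 to 7.03, went against it: they lay around 6.78, a bound under which 25% of all genes lie.

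Among the demethylases, 5 of 18 passed the test for the average response to TGFbeta, 3 higher and 2 lower. Of all genes 24.3% passed, 11.2% higher and 13.1% lower. Kdm6b removes the methyl mark that Polycomb proteins place on silent genes. With the control vector it stood at 9.16 and 9.82 without TGFbeta (replicate numbers 1 and 2, in that order throughout) and at 10.22 and 10.54 after 8 h. With the major satellite vector the values were 9.11 and 9.69, then 9.93 and 10.20. Every treated array was above every untreated array. The average rise was 0.77 ± 0.08 (adjusted p = 0.000115), which is 1.71-fold, and the adjusted p was 0.103 without the replicate number in the fit.

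Kdm5b acts on a different mark, the methyl group of active promoters. Its values with the control vector were 10.22 and 10.85 at 0 h and 11.11 and 11.62 at 8 h. With major satellite they were 10.29 and 10.68, then 11.08 and 11.28. Treated and untreated arrays did not overlap, and number 2 was the higher array in all 4 groups. Kdm5b rose by 0.76 ± 0.08 (adjusted p = 0.00011; 0.0916 without the replicate number), or 1.70-fold.

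Kdm1a, the amine oxidase that works in repressor complexes with the Rcor proteins, was measured at 10.56 and 10.85 without TGFbeta and 11.17 and 11.29 with it in control vector cells. In major satellite cells it went from 10.78 and 10.78 to 11.28 and 11.15. The treated arrays again lay above all untreated ones. Number 2 was higher than number 1 by 0.07 on average, but the gap varied by group and changed sign. Number 1 was at 10.56 against 10.85 for number 2 in untreated control vector cells. In treated major satellite cells number 2 was the lower, with 11.28 for number 1 and 11.15 for number 2. The rise of 0.48 ± 0.08 (adjusted p = 0.0015) was 1.39-fold and passed without the replicate number too (adjusted p = 0.0442). Kdm1b, its relative, was at -0.02 ± 0.06 and did not pass.

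Kdm7a, a jumonji enzyme that removes repressive methyl marks, fell. In control vector cells it was 9.98 and 11.47 at 0 h and 9.35 and 10.98 at 8 h, and in major satellite cells 9.77 and 11.36, then 9.12 and 10.75. The arrays of number 2 were higher than those of number 1 by 1.59 on average, so treated and untreated arrays overlapped over all 8, while within each number the treated arrays were the lower ones. The average difference was -0.60 ± 0.06 (adjusted p = 0.000101), or 1.51-fold lower. The call rests on the pairing, since the adjusted p was 0.835 without the replicate number. A second probeset of Kdm7a differed by -0.56 and was lower at 8 h in all 4 pairs. Kdm8, a jumonji protein with reported hydroxylase activity, also fell, by 0.29 on the log2 scale (SE 0.06, adjusted p = 0.00515; 0.621 without the replicate number).

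The other 13 Kdm genes did not pass and ranged from -0.11 to 0.26. They were Kdm1b, Kdm2a, Kdm2b, Kdm3a, Kdm3b, Kdm4a, Kdm4b, Kdm4c, Kdm4d, Kdm5a, Kdm5c, Kdm5d and Kdm6a. Paralogs of the changed genes are in this group: Kdm6a, the X-linked relative of Kdm6b, was at -0.11 ± 0.07, and Kdm5a and Kdm5c, relatives of Kdm5b, were at 0.18 ± 0.07 and 0.16 ± 0.06. Kdm4a missed the threshold narrowly at 0.23 ± 0.07 (adjusted p = 0.0506).

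**Figure D1:**
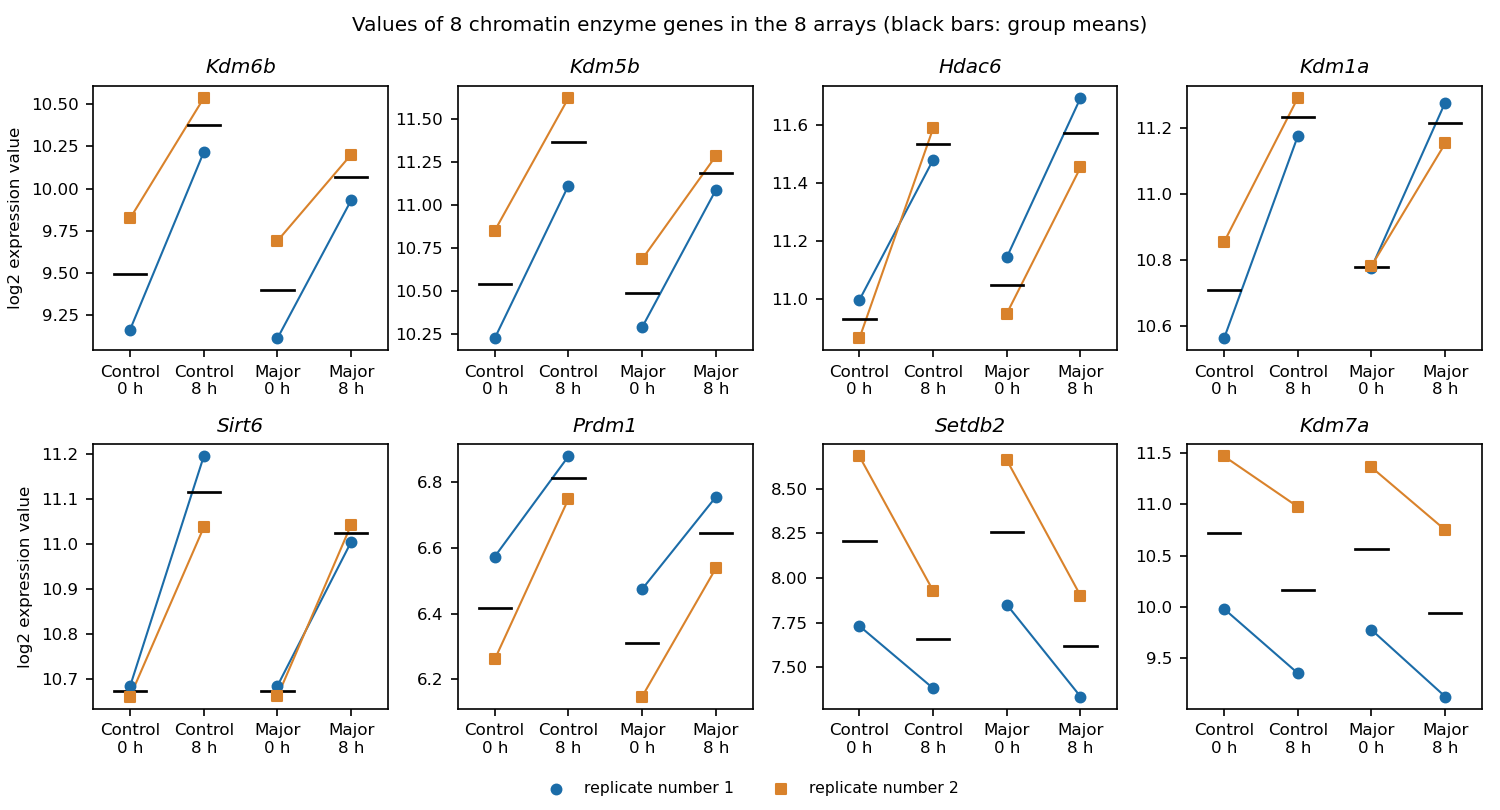
Log2 expression value (y axis, own scale per gene, not from 0) of 8 genes in the 4 groups (x axis). Points are single arrays, lines join arrays of the same replicate number and vector, and black bars are group means. In Kdm6b, Kdm5b, Hdac6, Kdm1a and Sirt6 all 8 h arrays lie above all 0 h arrays. In Kdm7a and Setdb2 the 2 replicate numbers run on separate levels and both fall. Number 2 lies above number 1 in all 4 groups in Kdm6b and Kdm5b too.

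Of the 11 zinc-dependent deacetylases, 2 rose and 1 fell, where 11.2% of all genes passed as higher and 13.1% as lower. Hdac6, a mostly cytoplasmic enzyme that acts on tubulin, was at 10.996 and 10.86 in untreated control vector cells and 11.48 and 11.59 after TGFbeta. With major satellite it was at 11.14 and 10.95, then 11.69 and 11.45. No treated array fell into the range of the untreated ones. Hdac6 rose by 0.57 ± 0.07 (adjusted p = 0.000432), which is 1.48-fold, and passed without the replicate number (adjusted p = 0.0276). It also passed in each of the 16 alternative settings tried. Among these, updated symbols repeat the main fit, and other probesets cannot move its estimate because it has 1 probeset.

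The other calls among the deacetylases were smaller. Hdac4, a class IIa enzyme that shuttles between nucleus and cytoplasm, was higher by 0.20 ± 0.06 (adjusted p = 0.0361) and did not pass without the replicate number. Its second probeset was at 0.04 and higher in 2 of 4 pairs, so the probesets of Hdac4 disagree. Hdac10, the class IIb relative of Hdac6, was lower, at -0.21 ± 0.06 (adjusted p = 0.0392, and 0.425 without the replicate number). Both calls were kept in only 1 of the 8 fits that left out an array, with adjusted p up to 0.136 for Hdac4 and 0.183 for Hdac10.

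None of the 4 class I enzymes, the nuclear deacetylases Hdac1, Hdac2, Hdac3 and Hdac8, passed in limma or reached an unadjusted p under 0.05, and they ranged from -0.13 to 0.07. Hdac1 was lower at 8 h in all 4 pairs, by 0.09 to 0.17. Its average was -0.13 ± 0.06 with a 95% confidence interval (CI) from -0.27 to 0.01. A second probeset of Hdac1 was at -0.15 and lower in all 4 pairs too. Hdac5, Hdac7, Hdac9 and Hdac11 did not pass either. Hdac7, class IIa, came closest at -0.22 ± 0.07 (adjusted p = 0.0513) and was lower in all 4 pairs. Hdac9 was 1 of 3 members, with Kdm5d and Prdm1, whose mean over the arrays lay below the 6.78 bound.

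Sirt6, a sirtuin of the nucleus that acts on chromatin, was the 1 of 7 sirtuins that passed, where 24.3% of all genes did. It read 10.68 and 10.66 without TGFbeta and 11.19 and 11.04 with it in control vector cells. With major satellite it went from 10.68 and 10.66 to 11.004 and 11.04. The 4 untreated arrays lay within a few hundredths of each other, and all treated arrays were above them. Sirt6 rose by 0.40 ± 0.06 (adjusted p = 0.00131), or 1.32-fold, and passed without the replicate number (adjusted p = 0.0401).

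The other sirtuins ranged from -0.18 to 0.16. Sirt1, the nuclear founder of the family, was higher in all 4 pairs at 0.16 ± 0.06 (adjusted p = 0.104). Of the mitochondrial members, Sirt5 was lower in all 4 pairs at -0.18 ± 0.06 (adjusted p = 0.0556), Sirt4 higher in all 4 at 0.12 ± 0.06 (adjusted p = 0.197), and Sirt3 higher in 1. Sirt2 and Sirt7 were at 0.07 ± 0.06 and 0.01 ± 0.07.

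SET domain genes gave 1 rise and 1 fall among 9, where 24.3% of all genes passed. Setdb2 belongs to the methyltransferases that act on the heterochromatin mark. In control vector cells it was 7.73 and 8.68 at 0 h and 7.38 and 7.93 at 8 h, and in major satellite cells 7.85 and 8.66, then 7.34 and 7.90. Number 2 was higher in every group, and within each number both treated arrays were below both untreated ones. The average difference of -0.59 ± 0.08 (adjusted p = 0.00059), 1.51-fold lower, had an adjusted p of 0.463 without the replicate number. Setd7, which places a single methyl group on histone and other proteins, was higher by 0.30 ± 0.07 (adjusted p = 0.0095, and 0.375 without the replicate number). Leaving out the major satellite array at 0 h of number 2 moved the adjusted p of Setd7 to 0.0610.

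Setd1a, Setd1b, Setd2, Setd3, Setd4, Setd5 and Setd6 did not pass on average, with differences from -0.21 to 0.20. Setd1b, a catalytic subunit of the COMPASS complexes that mark active promoters, was higher in all 4 pairs at 0.20 ± 0.07 (adjusted p = 0.0682), and its second probeset was at 0.16. Setd1a, its paralog in the same kind of complex, had an interval from -0.14 to 0.13. Setd2, which methylates histones along transcribed genes, was at -0.02 ± 0.06.

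Prdm1, a zinc finger repressor known from lymphocyte and germ cell differentiation, was the 1 of 12 PR domain genes that passed, where 24.3% of all genes did. It was 6.57 and 6.26 in untreated and 6.88 and 6.75 in treated control vector cells. In major satellite cells it was 6.47 and 6.15, then 6.75 and 6.54. Every pair rose, but the lowest treated array was just under the highest untreated one. Prdm1 rose by 0.37 ± 0.06 (adjusted p = 0.00228; 0.207 without the replicate number), or 1.29-fold, and as its level lies under the 6.78 bound it dropped out when dim genes were removed.

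The other 11 PR domain genes, Prdm2, Prdm4, Prdm6, Prdm8, Prdm9, Prdm10, Prdm11, Prdm13, Prdm14, Prdm15 and Prdm16, ranged from -0.26 to 0.14. Prdm9, known as the meiotic factor that places recombination sites, was lower in all 4 pairs at -0.26 ± 0.08 (adjusted p = 0.0527). Prdm2, the founding PR domain gene, was lower in all 4 pairs too, at -0.21 ± 0.07 (adjusted p = 0.0582), and its second probeset was at -0.19.

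**Figure D2:**
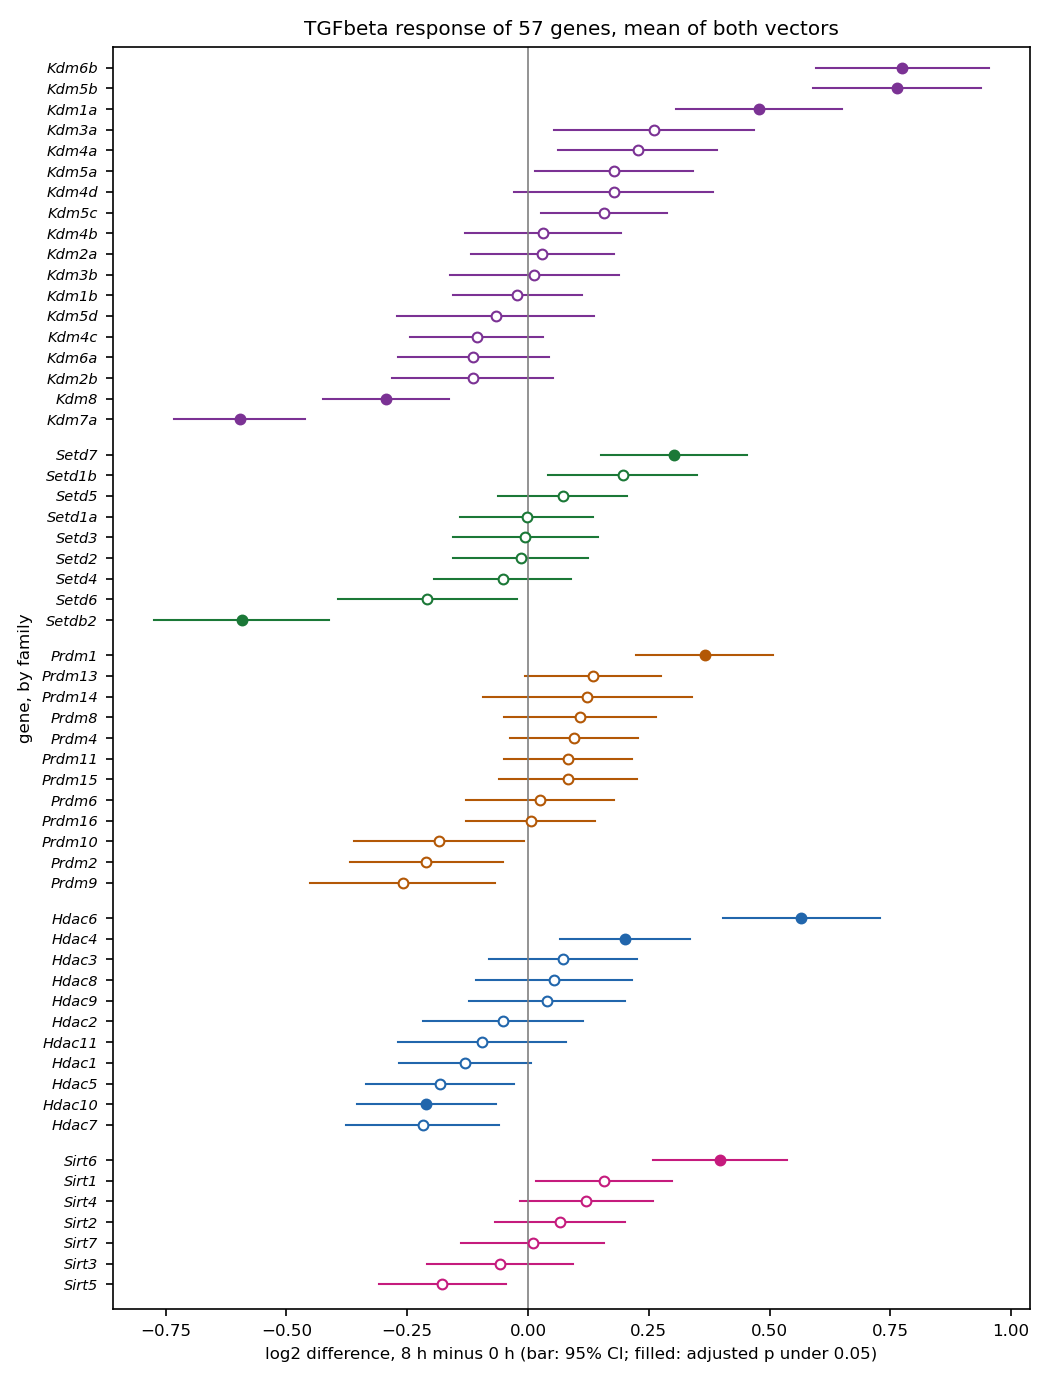
Average log2 difference, 8 h minus 0 h, over both vectors (x axis) for the 57 genes ordered by size within the Kdm, Setd, Prdm, Hdac and Sirt families (y axis). Bars are 95% confidence intervals and filled points passed at an adjusted p under 0.05. The 12 filled points run from -0.60 for Kdm7a to 0.77 for Kdm6b, and the 45 open points lie between -0.26 and 0.26.

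In all, 8 members rose and 4 fell in the average response to TGFbeta. Over all genes 11.2% passed as higher and 13.1% as lower, so the members passed about as often as genes at large. Their median difference was 0.03 against 0.02 for all genes, and the median size was 0.12 against 0.11. By direction alone, 16 members were higher at 8 h in all 4 pairs and 12 lower, together 49.1% against 42.1% of all genes. Without the replicate number in the fit, 3 members passed (Hdac6, Kdm1a and Sirt6) and 4.83% of all genes. The other 9 then had adjusted p from 0.0916 to 0.835.

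The difference between replicate numbers, number 2 minus number 1, ranged from -0.60 for Hdac5 to 1.59 for Kdm7a, with a median size of 0.20. For 38 of the 57 genes this difference was larger in size than the average response to TGFbeta. The share of all genes for which this held is not given, so the count does not set the members apart. Kdm5a, at 1.03, Kdm6a, at 0.98, and Setd2, at 0.94, were other demethylase or SET genes with much higher values in number 2, named after their values were seen. What the number stands for was not given in the sources used here.

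With the control vector alone, 9 of 57 members passed (6 higher and 3 lower, 15.8%), against 14.6% of all genes (6.92% higher and 7.63% lower). With the major satellite vector 9 also passed (6 higher and 3 lower, 15.8%), against 15.3% (6.89% higher and 8.38% lower). The same 8 genes passed in both: Kdm6b, Kdm5b, Kdm1a, Hdac6, Sirt6 and Prdm1 rose and Kdm7a and Setdb2 fell. Kdm6b rose by 0.88 ± 0.11 with the control vector and 0.67 ± 0.11 with major satellite. Kdm5b rose by 0.83 ± 0.11 and 0.70 ± 0.11. Kdm1a gave 0.52 ± 0.11 and 0.43 ± 0.11, and Hdac6 0.60 ± 0.10 and 0.53 ± 0.10. These 4 genes, with Sirt6 (0.44 ± 0.09 and 0.35 ± 0.09) and Prdm1 (0.40 ± 0.09 and 0.33 ± 0.09), had the smaller estimate with major satellite, by less than the SE of the difference for all but Kdm6b.

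Both genes that fell had the larger estimate with major satellite. Kdm7a was at -0.56 ± 0.08 with the control vector and -0.63 ± 0.08 with major satellite, and Setdb2 at -0.55 ± 0.11 and -0.64 ± 0.11. Adjusted p for these 8 genes lay between 0.000872 and 0.0159 with the control vector and between 0.0012 and 0.033 with major satellite. Without the replicate number none of the 57 passed in limma in either vector, where 1.07% of all genes did with the control vector and 1.09% with major satellite. At an unadjusted p under 0.05 there were then 5 members with the control vector (9.34% of all genes) and 4 with major satellite (9.72%). The 9 calls had adjusted p from 0.14 upward with the control vector and from 0.194 to 0.984 with major satellite.

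Kdm6b, Kdm5b and Kdm7a kept their calls in both vectors when any 1 of the 8 arrays was left out. The calls of Hdac6, Kdm1a, Setdb2, Sirt6 and Prdm1 were kept in 5 to 7 of the 8 such fits with the control vector and in 4 to 6 with major satellite. Fewer members passed in some of these fits in each vector. The share of all genes in these fits is not given, so the fall is not a result about the members.

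Of the members that passed in a single vector, Kdm8 passed with major satellite (-0.31 ± 0.08, adjusted p = 0.0355) and was at -0.28 ± 0.08 (adjusted p = 0.0509) with the control vector. Its call with major satellite was kept in 2 of the 8 fits that left out an array, with adjusted p up to 0.202. Setd6, which methylates a subunit of NF-kappaB, passed with the control vector at -0.41 ± 0.12 (adjusted p = 0.0457) and was at -0.01 ± 0.12 with major satellite. The call of Setd6 was kept in 3 of those 8 fits. Its difference was -0.25 (adjusted p = 0.408) without the control vector's 0 h array of number 2, -0.31 (0.361) without its 8 h array of number 2 and -0.51 (0.0780) without its 8 h array of number 1, and the adjusted p was 0.0546 without either 8 h array of major satellite. It also missed the threshold after repeated quantile normalization (adjusted p = 0.0526), after median centring (0.0560) and without the replicate number (0.568). Its pairs, given because of that contrast and chosen after its values were seen, were -0.21 and -0.60 with the control vector and -0.15 and 0.14 with major satellite. The difference between the vectors, 0.40 ± 0.16, had an unadjusted p of 0.0372 and an adjusted p of 0.999 (95% CI 0.03 to 0.77).

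**Figure D3:**
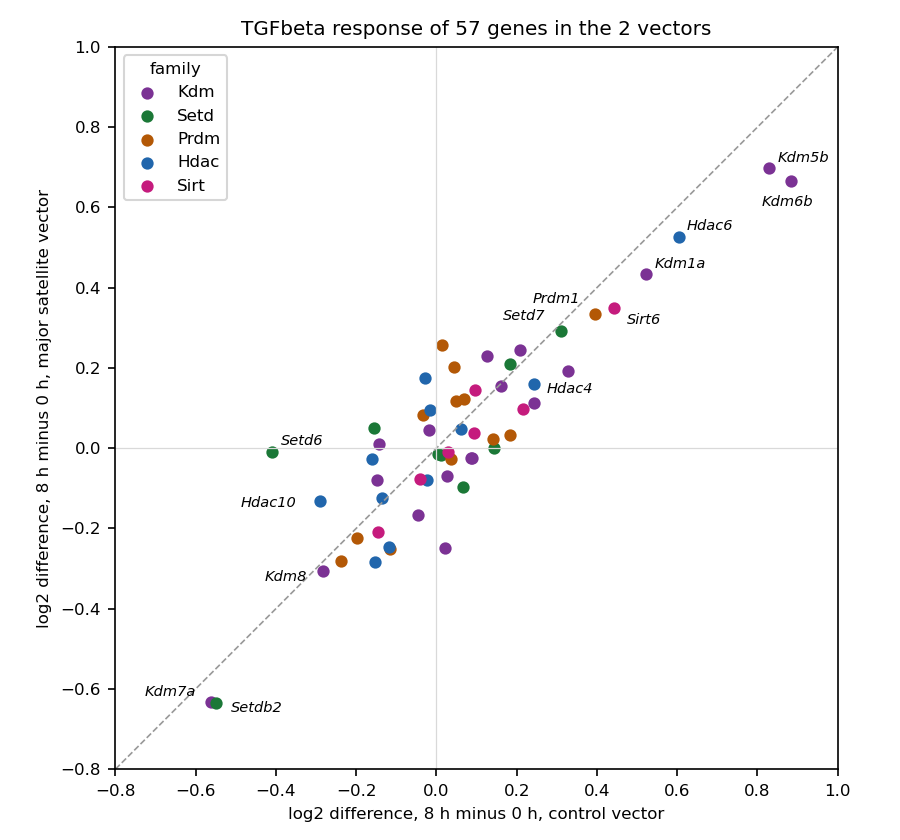
Log2 difference, 8 h minus 0 h, with the control vector (x axis) and with the major satellite vector (y axis) for the 57 genes, coloured by family, with the line of equal response dashed. The genes named passed in at least 1 comparison of TGFbeta. Of the 57, 41 have the same sign in both vectors, and Setd6 lies at -0.41 and -0.01. The share of all genes with the same sign is not given.

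Across the 57 genes the responses in the 2 vectors correlated at r = 0.89, a description over genes, which are not independent replicates, from arrays that share the replicate numbers. In limma none of the 57 passed for a difference between vectors in its response, and none of the 19937 genes did (0.0%). At an unadjusted p under 0.05 there was 1 member, Setd6, against 3.3% of all genes. The members' differences ranged from -0.27 for Kdm6a to 0.40 for Setd6, and their 95% intervals reached from -0.58 to 0.77. The demethylase Kdm6b was at -0.22 ± 0.16, with an interval from -0.57 to 0.14.

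For major satellite against control vector over both times, the members' differences ranged from -0.20 for Kdm6b to 0.14 for Sirt3, with 95% intervals between -0.38 and 0.29. Adjusted p was 0.874 or more for every member. At an unadjusted p under 0.05 there were 4 members, all lower with major satellite: Kdm7a (-0.19 ± 0.06), Kdm6b (-0.20 ± 0.08), Hdac5 (-0.17 ± 0.07) and Setd2 (-0.15 ± 0.06). Over all genes 5.37% reached that level. By direction, 4 members were higher with major satellite in all 4 pairs (Hdac1, Kdm8, Sirt3 and Sirt7) and 12 lower, together 28.1% against 16.6% of all genes. The members' median was -0.03 and that of all genes 0.00.

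Kdm7a, the demethylase with the smallest p, was lower with major satellite by 0.20 and 0.11 at 0 h and by 0.23 in both pairs at 8 h. The pairs of Kdm6b differed by -0.05 and -0.13 at 0 h and by -0.29 and -0.34 at 8 h. Hdac3, the catalytic subunit of the NCoR complexes, and Setdb2 were at 0.04 ± 0.07 and 0.01 ± 0.08. The interval of Setdb2 ran from -0.17 to 0.19.

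At 0 h alone no member passed (0.0301% of all genes did) and none reached an unadjusted p under 0.05, where 3.28% of all genes did. Differences ranged from -0.21 for Prdm14 to 0.16 for Sirt3. After 8 h no member passed either (0.0301% of all genes), and 5 reached an unadjusted p under 0.05 (6.51% of all genes): Kdm6b at -0.31 ± 0.11, Kdm7a at -0.23 ± 0.08, Setd2 at -0.23 ± 0.09, Hdac5 at -0.23 ± 0.10 and Setd6 at 0.29 ± 0.12. Their adjusted p was 0.752.

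**Figure D4:**
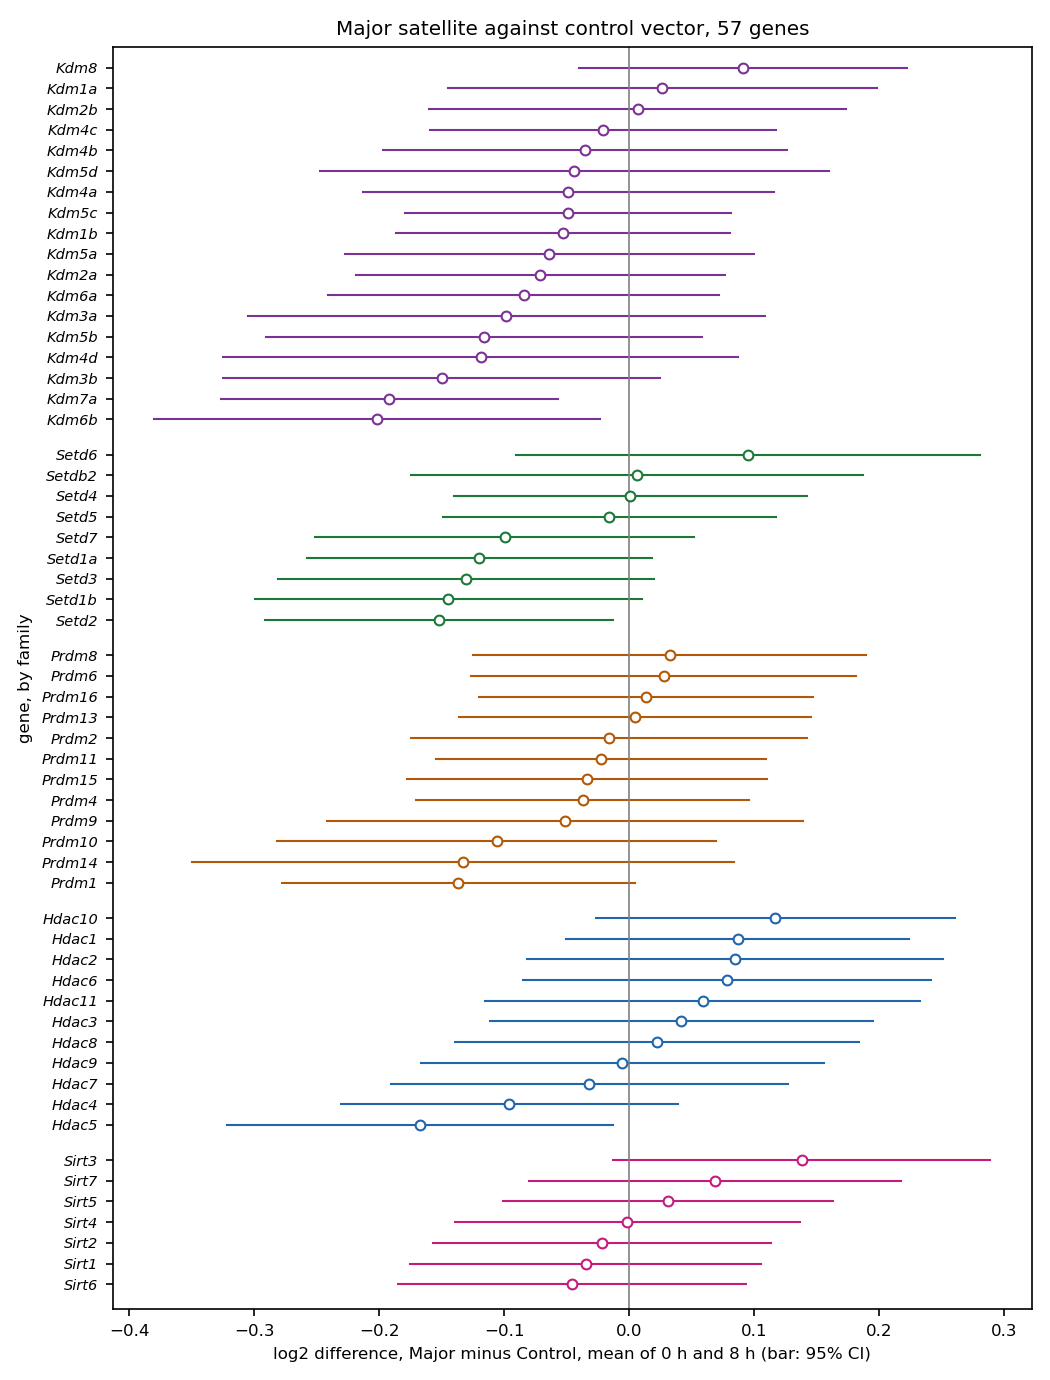
Log2 difference, major satellite minus control vector, averaged over 0 h and 8 h (x axis), for the 57 genes by family (y axis), with 95% confidence intervals. Every point is open because none passed at an adjusted p under 0.05, and the points span -0.20 for Kdm6b to 0.14 for Sirt3.

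Partner genes of the same chromatin pathways were counted from lists chosen by function. Of 27 subunits of histone deacetylase complexes, 4 rose and 1 fell after TGFbeta, with Rcor2, a partner of Kdm1a, at 0.73 ± 0.07, Mta3 at 0.40 ± 0.07 and Hmg20b, which sits with Kdm1a and the Rcor proteins, at 0.29 ± 0.06. The list's 18.5% compares with 24.3% of all genes and its median of 0.01 with 0.02. Of 13 jumonji genes outside the Kdm names, 4 rose and 2 fell (46.2%, median -0.03). Jmjd1c, a relative of Kdm3a, rose by 0.53 ± 0.06, Jmjd4 by 0.58 ± 0.06 and Hr, a corepressor, by 0.61 ± 0.07.

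The opposing enzymes gave the following counts, to be read beside the 24.3% of all genes that passed in the same fit. Of 13 histone acetyltransferases 1 rose and 4 fell (38.5%, median -0.10). Hat1, which acetylates new histones, was at -0.86 ± 0.09, Kat2b at -0.62 ± 0.07, and Kat5 rose by 0.38 ± 0.09. Of 11 genes of Polycomb repressive complex 2, whose mark Kdm6b removes, 2 rose and 2 fell (36.4%, median -0.02), with Suz12 at -0.46 ± 0.06, Jarid2 at 0.41 ± 0.07 and Aebp2 at 0.31 ± 0.06. Of 12 MLL and COMPASS genes, whose mark Kdm5b removes, 1 fell (8.33%, median -0.01), which was Kmt2c at -0.23 ± 0.06.

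Of 4 methyltransferases of the heterochromatin mark other than Setdb2, 2 fell (50.0%, median -0.18), Suv39h2 at -0.37 ± 0.07 and Setdb1 at -0.22 ± 0.06. Of 13 other SET domain genes and histone methyltransferases, 3 rose and 2 fell (38.5%, median 0.02). The share of all genes for both lists, with the replicate number in the fit, was 24.3%. Mecom, which is a PR domain gene by structure, was at 0.55 ± 0.07, Setmar at 0.36 ± 0.06 and Smyd2 at -0.22 ± 0.06. Without the replicate number these counts fell to 1 of 27 for the deacetylase complexes (Rcor2), 1 of 13 for the jumonji genes (Phf8), 2 of 13 for the acetyltransferases (Hat1 and Kat2b) and 1 of 13 for the other SET domain genes (Setmar), against 4.83% of all genes. In limma they then fell to 0 for Polycomb repressive complex 2, the COMPASS genes and the methyltransferases of the heterochromatin mark, of which 2, 0 and 1 genes had an unadjusted p under 0.05 (15% of all genes). No gene of these 7 chromatin lists passed for major satellite against control vector.

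Markers of other cell types are given because they could move with the members. In cultured cells measured in bulk, fewer cells of a type and less RNA per cell cannot be told apart. Of 7 epithelial markers 3 passed after TGFbeta, with Krt19 at -0.74, Epcam at 0.39 and Cldn3 at 0.31. Their summed level was 15.6 to 15.8 at 0 h and 15.6 to 15.7 at 8 h on the log2 scale. Of 7 fibroblast markers 2 rose, Pdgfra by 0.66 and Col1a1 by 0.47, and the summed level was 10.3 to 10.6 at 0 h and 10.6 to 10.8 at 8 h. Of 5 mammary basal markers 2 rose (9.67 to 10.03 at 0 h, 9.81 to 10.23 at 8 h), Krt14 by 0.44 and Acta2 by 0.30. Of 4 endothelial markers Cdh5 rose (8.60 to 8.95, then 8.78 to 9.11), and of 5 immune markers Csf1r (9.65 to 10.02, then 9.68 to 10.09), while Ptprc, the defining leukocyte marker, stayed between 6.35 and 6.53. Without the replicate number 2 of these 9 marker calls were kept, Krt19 and Pdgfra. No marker passed for the vector. Their part in the changes of the 57 genes was not tested.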

How the data were processed

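Gene expression was measured on 8 Affymetrix arrays, 2 in each of 4 groups. The authors deposited log2 values, 1 per probeset and array, whose range fits robust multi-array averaging (RMA). The tools RMA and limma stand in the list taken per the submitters' processing notes; versions, roles and the probe annotation's build are not given in the sources used here. Of 34760 probesets, 21640 had 1 gene symbol in the platform's probe table, 1321 had several and 11799 had none listed; the last 2 kinds were left out. Where a gene had several probesets, the one of highest mean was used, which left 19937 genes. The same 57 members were found by the symbols updated through RefSeq. Members, gene lists and tests were chosen with earlier results of these data known.

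The fit covered all genes (limma 3.58.1 under R 4.3.3, eBayes defaults): 1 mean per group and the replicate number as a block, with 3 residual degrees of freedom. Tests were two-sided with Benjamini-Hochberg adjustment over all 19937 genes of a comparison. The replicate number is the code shared by 1 array title of every group. Deviations from the group means of arrays with the same number correlated across genes at r = 0.758 to 0.874 between groups, and results without the block are printed where they change a call. The fit was tested on simulated data with known changes.

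Named with the value of every array were the called members with the largest log2 difference, up to 8 for the average response to TGFbeta and up to 6 for each other comparison, and 1 per family with the smallest p. Other called members are given by their difference, members that were not called by the range of their family, and other lists by up to 3 called genes with the smallest p. Genes singled out beyond this rule for a pair of values, a rank or a p near the threshold were chosen after their values were seen. Promoter windows came from RefSeq, build GRCm38.p6. Positions of probesets were not used here.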

Additional observations from a re-analysis of the deposited data

Results flagged for a closer look

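Setd2, the methyltransferase that acts along transcribed genes, did not pass for TGFbeta in either vector, but its pairs had opposite signs in the 2 vectors. With the control vector both pairs were higher at 8 h, by 0.06 and 0.07 on the log2 scale. With major satellite both pairs were lower, at -0.17 and -0.02. The difference between the responses, major satellite minus control vector, was -0.17 ± 0.12, and did not pass in limma's fit across all genes, with an unadjusted p of 0.211 and an adjusted p of 0.999. A second probeset of Setd2, like the first, was higher at 8 h in 2 of 4 pairs, which ranged from -0.31 to 0.09. Its pairs are not given by vector here.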

How the results depend on the processing

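The number of arrays limits what can be read from these data. The setting that moved the counts most was the replicate number. With no replicate block, members called fell from 12 to 3 in the average response to TGFbeta, from 9 to 0 with the control vector and from 9 to 0 with major satellite. At an unadjusted p under 0.05 without the block, limma gave 5 and 4 members in the last 2 comparisons. Leaving out 1 array at a time leaves 1 array in a group. Fewer members were then called in some of these fits in each of the 3 comparisons. The share of all genes in these fits is not given, so the fall is not a result about the members. The number called did not change in any comparison of the vectors or in the difference of the responses. The other settings kept these counts within 1.5 times of 12, 9 and 9. They were other probesets per gene, repeated quantile normalization, median centring, removal of dim genes, trended robust eBayes and only the 4 arrays of a comparison. The widest move was 16 of the 54 members kept, in the average response after dim genes were left out and 14953 genes remained. The share of all genes that passed there is not given, so this move is not a result about the members. Updated symbols gave the same members and repeated the main fit, so that setting could not change a count. The fit to 4 arrays was not run for averages or the difference of responses.

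Of 647 single-gene values under alternatives, 548 kept their direction and their side of the threshold, 88 lost a call, 7 gained one and 4 reversed. The values under updated symbols repeat the main fit and are among those that were kept. Those that reversed were in the response with major satellite. Hdac4 moved from 0.16 to -0.044 with its lowest probeset, so its probesets disagree here too. Setd6, near 0 in the main fit, was at 0.036 after repeated quantile normalization. It was at 0.12 without the 0 h array of number 1 and 0.06 without the 8 h array of number 1. Its range was -0.14 to 0.12 over the fits that left out 1 array. The cause was not tested.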
